A study of Homo sapiens with 2 samples.

Results

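Pericentromeric regions of chromosomes 4, 9, 16, 17, 18 and 20 held 274 of the 1936 AIM2 ChIP-seq peaks called in unirradiated HaCaT cells and 212 of the 1525 called after 20 Gy of X-rays. A peak was a member if its summit, the base of highest coverage, lay in a fixed interval of the GRCh38 assembly. The intervals were 48.5 to 52.5 Mb of chromosome 4, 42 to 70 Mb of chromosome 9, 34 to 47 Mb of chromosome 16, 21 to 28 Mb of chromosome 17, 15 to 21.5 Mb of chromosome 18 and 25 to 32.5 Mb of chromosome 20. The rule used positions and no measured value, and nothing was filtered out afterwards. The name pericentromeric rests on position alone, since centromere and satellite annotation was not used here. Members made up 14.2% of the nuclear peaks at 0 Gy and 14% at 20 Gy.

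DNA recovered with an AIM2 antibody was compared between irradiated and non-irradiated cells. HaCaT is an immortalised, aneuploid human keratinocyte line, and both groups were this line with no genetic change named. By its treatment label the 0 Gy group received no treatment, though the treatment protocol names irradiation under both samples. The 20 Gy group received X-rays at 1.15 Gy per minute, with 4 h given in its sample title and no event named from which this time counts. Each group had 1 library, so every difference described is between these libraries and could not be tested against replicate spread. Copy number of each chromosome in these cells was not analysed here, so more copies of a region and more antibody signal per copy cannot be told apart.

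AIM2 is a cytosolic receptor that binds double-stranded DNA through its HIN domain without regard to sequence and assembles the inflammasome with ASC and caspase-1. Human centromeres are built on tandem alpha satellite, and the flanking pericentromeres carry other satellites, segmental duplications and few active genes. Chromosomes 9 and 16 bear large blocks of satellite heterochromatin next to their centromeres. GRCh38 fills centromeres with modelled alpha satellite arrays and leaves much of the chromosome 9 heterochromatin as an assembly gap. No input library was used, so a place where reads pile up without the antibody can also be called, and the repeat content of these peaks was not analysed here.

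The caller kept 8786091 fragments at 0 Gy and 6423989 at 20 Gy, so the 20 Gy library had 0.731 times the depth. Pileup is the number of fragments covering the summit. For ratios between the libraries it was divided by the kept fragments, and scaled values are given per 1000000 of them. Pileups, their medians and bands of pileup given for each library are unscaled, so they run lower at 20 Gy for the same height per kept fragment. Per 1000000 kept fragments the 0 Gy list held 31.2 member peaks (274 peaks, exact Poisson interval 243 to 308) and the 20 Gy list 33.0 (212 peaks, 184 to 243). The members covered 75247 bp at 0 Gy with a mean width of 275 bp, and 56668 bp at 20 Gy with a mean width of 267 bp. All intervals are at 95% and cover counting error only, since amplified fragments without molecular identifiers are not independent molecules. Intervals on peak counts and shares also treat neighbouring peaks of a list as independent, which they need not be.

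Peak number varied widely among the 6 regions. Chromosome 20 held the most peaks at 0 Gy, with 86 there (68.8 to 106) and 53 at 20 Gy (39.7 to 69.3). Chromosome 17 had 62 at 0 Gy (47.5 to 79.5) and 64 at 20 Gy (49.3 to 81.7), and was the only region of the 6 with more peaks in the shallower library. Chromosome 9 held 57 and 38 peaks, and chromosome 4 held 54 and 46. Chromosome 16 held 9 and 5, and chromosome 18 held 6 in each library. Most peaks of these chromosomes lay in the chosen intervals, with 62 of 68 on chromosome 17 and 86 of 91 on chromosome 20 at 0 Gy, but 9 of 21 on chromosome 16 and 6 of 12 on chromosome 18.

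**Figure D1:**
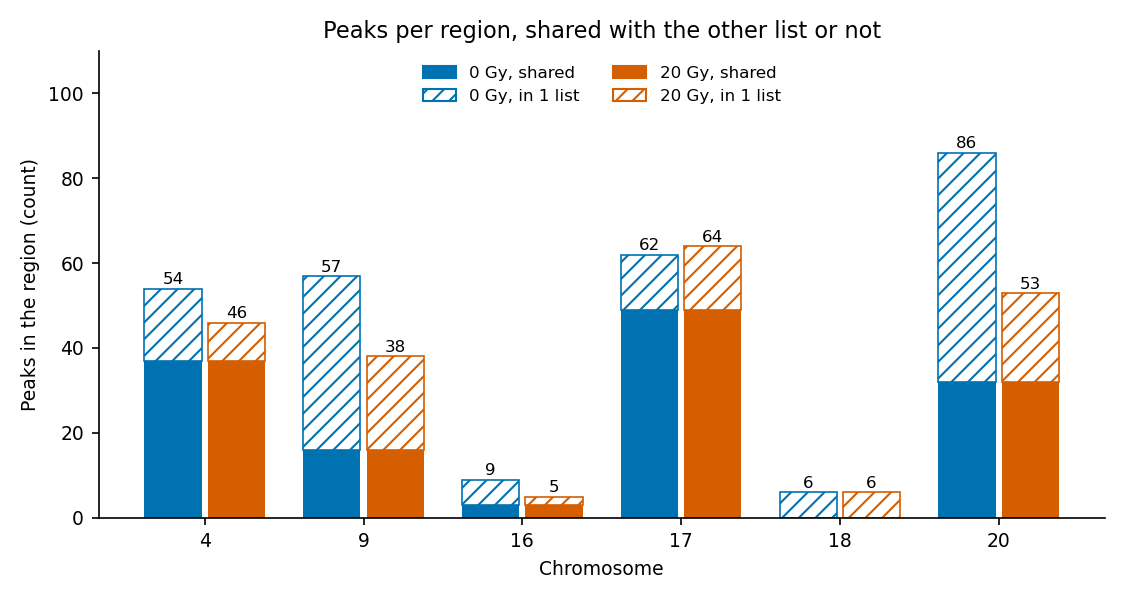
Number of peaks in each region at 0 Gy (blue) and 20 Gy (orange). Solid bars are peaks that overlap a peak of the other list, hatched bars are peaks found in 1 list only, and the number above each bar is the total. Chromosome 17 is mostly solid in both libraries, chromosomes 9 and 20 are mostly hatched at 0 Gy, and chromosome 18 has no solid bar.

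The same places were called in both libraries for 137 members of each list, counting an overlap of at least 1 bp. This was 50% of the 0 Gy members (exact Clopper-Pearson interval 43.9 to 56.1), where 54.3% of all nuclear 0 Gy peaks were shared. It was 64.6% of the 20 Gy members (57.8 to 71.0), where the figure over all nuclear 20 Gy peaks was 69.2%. Taken as a whole, the members were thus close to the background in how often they recurred, and the differences lay between chromosomes.

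The largest share was on chromosome 17 at 0 Gy and on chromosome 4 at 20 Gy, and the intervals of these chromosomes overlap in both libraries. Chromosome 17 had 49 shared, which was 79.0% of the 0 Gy peaks (66.8 to 88.3) and 76.6% of the 20 Gy peaks (64.3 to 86.2). On chromosome 4, 37 were shared, or 68.5% (54.4 to 80.5) and 80.4% (66.1 to 90.6). With peaks within 10 kb merged, the chromosome 4 shares were lower, 40% of 15 at 0 Gy and 46.2% of 13 at 20 Gy. Those of chromosome 17 were then 81.25% and 75.5%. Counted singly, chromosome 20 shared 32, or 37.2% (27.0 to 48.3) and 60.4% (46.0 to 73.5), and the 0 Gy interval lies below the background. Chromosome 9 shared 16, or 28.1% (17 to 41.5) and 42.1% (26.3 to 59.2), below the background in both libraries and outside its counting interval. Chromosome 16 shared 3, and chromosome 18 shared 0 of 6 in each list, which allows a share of up to 45.9% by the exact interval. That limit is below the background in both libraries, but the background in these comparisons covers peaks of all heights. On chromosome 18, 5 of the 6 peaks in each list had pileups of 5 to 9, with an interval of 0 to 52.2%. In that band 18.9% of other nuclear peaks were shared at 0 Gy and 38.0% at 20 Gy, both inside that interval.

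Shared members were taller than unshared ones on chromosomes 4, 16, 17 and 20 in both libraries, by median pileup. On chromosome 9 the medians of shared and unshared peaks were both 14 at 0 Gy, and 15 and 11.5 at 20 Gy. Over all peaks of a region, median pileups at 0 Gy were 58 on chromosome 4, 29.5 on chromosome 17, 15 on chromosome 20, 14 on chromosomes 9 and 16, and 8 on chromosome 18. The 20 Gy medians were 45, 24, 12, 13, 14 and 7 in that order of chromosomes. Outside the 6 regions the medians were 15 at 0 Gy and 13 at 20 Gy, so chromosomes 4 and 17 stood above that level and chromosome 18 below it. Over the members with a pileup of at least 100, 29 of 30 at 0 Gy and 25 of 25 at 20 Gy were shared, and from 50 to 99 it was 27 of 27 and 17 of 18. Other nuclear peaks that tall recurred about as often. Of those at 100 or more, 93.7% at 0 Gy and 95.1% at 20 Gy were shared, and from 50 to 99 it was 98.7% and 96.2%.

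At medium height the members recurred less often than other nuclear peaks of the 0 Gy list. Between pileups of 20 and 49, 39 of 61 0 Gy members were shared (63.9%, 50.6 to 75.8), against 87.0% of 400 other nuclear peaks. Between 15 and 19 it was 20 of 50 members (40.0%, 26.4 to 54.8) against 61.0%, and between 10 and 14 it was 22 of 86 (25.6%, 16.8 to 36.1) against 33.9%. The regions split within the 20 to 49 band, with 19 of 19 shared on chromosome 17, 9 of 20 on chromosome 20, 7 of 14 on chromosome 4 and 3 of 6 on chromosome 9. In the 20 Gy list the 20 to 49 band showed no such gap, with 46 of 49 members shared (93.9%) against 95.0% elsewhere. Lower bands of the 20 Gy list again had lower shares among members. Between 15 and 19, 15 of 24 were shared (62.5%, 40.6 to 81.2) against 85.2%, and between 10 and 14, 27 of 61 (44.3%, 31.5 to 57.6) against 68.3%. Between 5 and 9 it was 7 of 35 (20%, 8.44 to 36.9) against 38.0%.

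Pileups in these bands are unscaled, so the same band stands for a greater height per kept fragment at 20 Gy than at 0 Gy. Within a library the bands hold peaks of similar height but not of equal background. The caller divides the pileup by a local background from the same library, and the deposited fold enrichment gives that background back. The lowest value in the list was 0.595 fragments at 0 Gy and 0.419 at 20 Gy. Chromosome 4 peaks sat on a median background of 11.8 times that lowest value at 0 Gy and 13.3 times at 20 Gy. The multiples were 3.25 and 3.56 on chromosome 9, 2.86 and 2.84 on chromosome 20, 2.11 and 2.1 on chromosome 17, and 2.02 and 2.19 over nuclear peaks elsewhere. Chromosome 18 was near the bottom at 1.15 and 1.06. Over all nuclear peaks, 6.01% at 0 Gy and 5.01% at 20 Gy lay at the lowest value. On chromosome 17 these were 15 of 62 (24.2%) and 10 of 64 (15.6%), whereas chromosome 4 had none in either library. Chromosome 16 had 2 of 9 at 0 Gy and 0 of 5 at 20 Gy, chromosome 18 had 1 of 6 and 2 of 6, chromosome 9 had 2 of 57 and 3 of 38, and chromosome 20 had 2 of 86 and 1 of 53.

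Fold enrichment over that background therefore ordered the regions differently from pileup. Its median was highest on chromosome 17, at 13.9 at 0 Gy and 11.2 at 20 Gy, where nuclear peaks elsewhere had 6.84 and 6.76. Chromosome 4, with the highest pileups, had 6.31 and 7.03. The medians were 5.02 and 5.66 on chromosome 9, 5.55 and 5.92 on chromosome 20, 6.0 and 6.55 on chromosome 16, and 5.15 and 5.20 on chromosome 18. A strong peak and its neighbours enter the window from which its own background is taken, so the quantities are not independent.

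**Figure D2:**
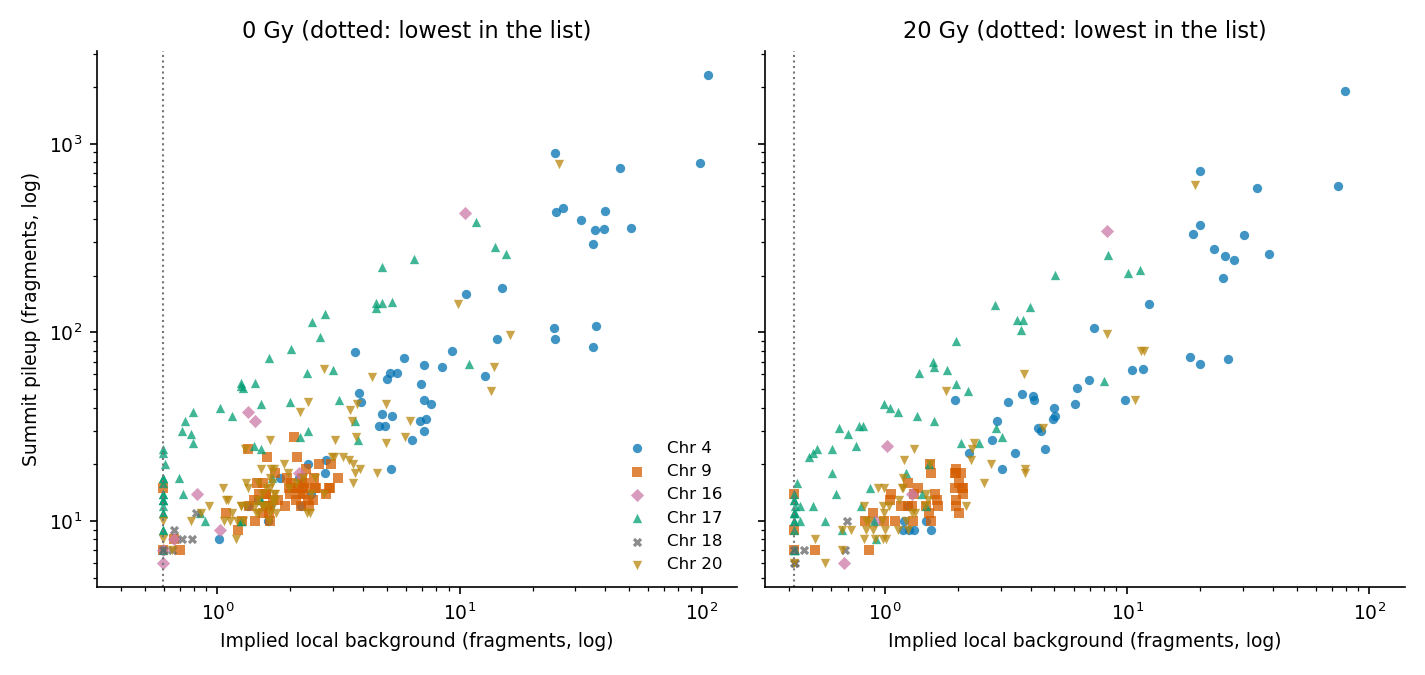
Summit pileup in fragments (log axis) against the local background implied by the fold enrichment (log axis) for each member peak at 0 Gy (left) and 20 Gy (right). The dotted line marks the lowest background in the whole list, 0.595 and 0.419 fragments. Chromosome 17 (triangles) reaches high pileups at low background, whereas chromosome 4 (circles) lies to the right at high background.

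The peaks were not spread evenly along the regions, and on chromosomes 4 and 17 their arrangement was similar in both libraries. The 100 kb window with most peaks was the same in both on these chromosomes. On chromosome 20 that window began at 26400000 at 0 Gy and at 31000000 at 20 Gy. On chromosome 4 a stretch of 61.9 kb, 49092744 to 49154615, held 15 peaks in each library, of which 14 were shared. It carried 73.5% of the summed pileup of the region at 0 Gy and 75% at 20 Gy. Its median pileup, unscaled, was 356 at 0 Gy and 260 at 20 Gy. It lies between CWH43, a gene of glycosylphosphatidylinositol anchor remodelling, and the long non-coding RNA gene LOC101927209. A following stretch, 49252074 to 49331595, held 19 peaks at 0 Gy with a median pileup of 37, and its 20 Gy counterpart held 12 with a median of 35, all 12 shared. Beyond 50 Mb peaks were few and low, and between 51040031 and 51356608 none of 5 at 0 Gy was shared.

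**Figure D3:**
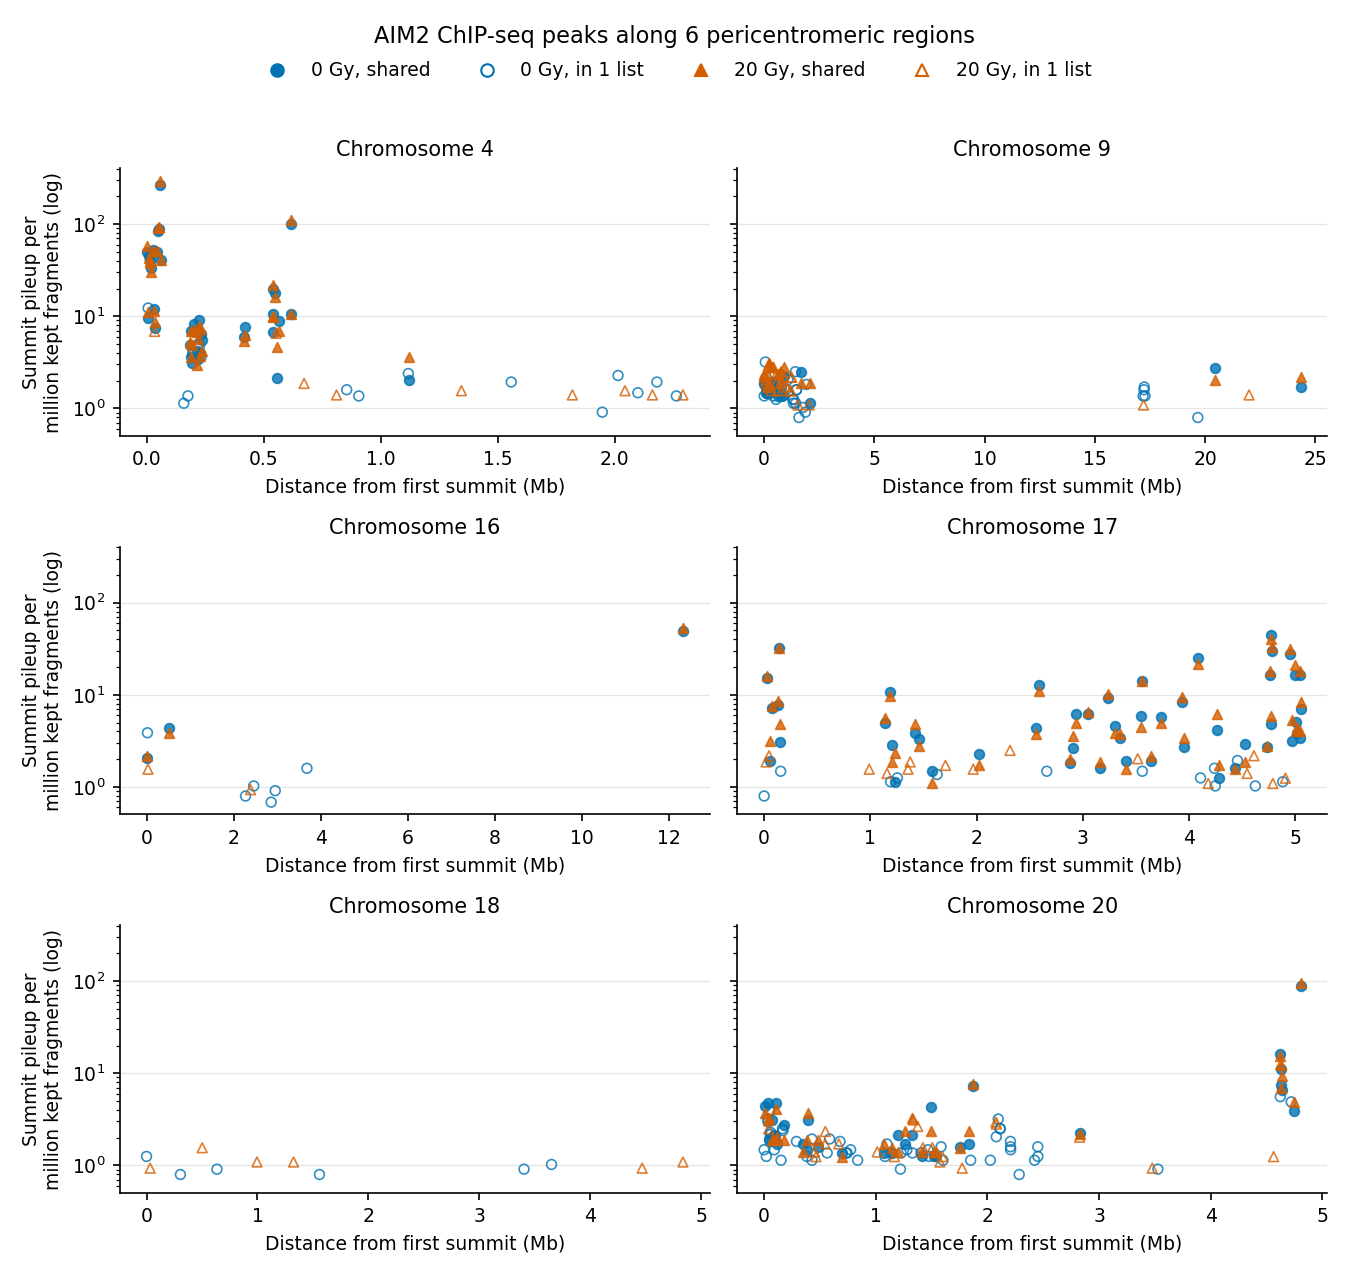
Summit pileup per 1000000 kept fragments (log axis) of every member peak, by distance in Mb from the first summit of its region. Circles are 0 Gy and triangles 20 Gy, and filled symbols are shared between the lists. The tallest chromosome 4 peaks stand near the start of its region, and the single tall peaks of chromosomes 16 and 20 stand at the far end. Chromosome 17 peaks of varied height lie on both sides of an empty stretch. Between neighbouring summits it spans 985936 bp at 0 Gy and 842360 bp at 20 Gy.

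The tallest chromosome 4 peak, at 49149171 to 49149840, had pileups of 2310 at 0 Gy and 1905 at 20 Gy. Scaled to 1000000 kept fragments these were 263 and 297, a ratio of 20 Gy over 0 Gy of 1.13 (exact binomial interval 1.06 to 1.2). This 1 peak held 23.3% of all member pileup of the region at 0 Gy and 25.6% at 20 Gy. The peak at 49709298 to 49709580 had pileups of 889 and 713, or 101 and 111 when scaled to depth, with a ratio of 1.1 (0.993 to 1.21). The peak at 49139628 to 49139815 had 740 and 584, or 84.2 and 90.9 when scaled, with a ratio of 1.08 (0.967 to 1.2). The first of these intervals lies above 1 and the other ones include it, and all 3 ratios fall between the quartiles over all nuclear pairs, 0.894 and 1.25.

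Among chromosome 4 pairs with a pileup of at least 20 in both libraries, the ratio ran from 0.762 to 1.64. The highest was at 49313314 to 49313515, with pileups of 30 at 0 Gy and 36 at 20 Gy (interval 0.983 to 2.76), and the lowest at 49657508 to 49657728, with 79 and 44. The strongest 0 Gy-only peak by −log10 q-value, 49099452 to 49099744, had a pileup of 108 (88.6 to 130) on a background of 36.7 fragments, which gave a fold enrichment of 2.89, and the nearest 20 Gy peak was 697 bp away. The 20 Gy-only peak ranked first in the same way, 49646222 to 49646398, had a pileup of 42 (30.3 to 56.8) and was 177 bp long. These unshared peaks thus stand inside crowded stretches and not apart from them.

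Chromosome 9 carried many low peaks and no tall one. Pileups there did not exceed 28 at 0 Gy and 20 at 20 Gy. Within 43404985 to 45473685 lay 50 of the 57 0 Gy peaks, and 34 of the 38 20 Gy peaks lay in nearly the same stretch, 43399715 to 45473733. No peak was called from there to 60585813 at 0 Gy and to 60604852 at 20 Gy, and the remaining 7 and 4 peaks were scattered up to 67.7 Mb. No read can map to the assembly gap of chromosome 9, and gap positions were not used here. The absence of peaks is therefore not read as a result. The stretch with most peaks begins after the pseudogene LOC102724904, and the next annotated gene is the pseudogene CNTNAP3P4, on the far side of the empty stretch. The best shared pair, 67723728 to 67723974, lay between the long non-coding RNA genes FAM27E3 and FAM27B and had pileups of 15 and 14 with fold enrichments of 10.0 and 10.6. The next were 44292325 to 44292662, with 20 and 18, and 43412368 to 43412718, with 16 and 15. The best unshared peaks were 43454977 to 43455353 at 0 Gy, with a pileup of 28 (18.6 to 40.5), and 44618306 to 44618495 at 20 Gy, with 14 (7.65 to 23.5).

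Chromosome 16 was dominated by 1 peak, 46390563 to 46390896, which held 76.2% of the member pileup of the region at 0 Gy and 86.3% at 20 Gy. Its pileups were 430 and 345, or 48.9 and 53.7 per 1000000 kept fragments, a ratio of 1.1 (0.95 to 1.27), and its fold enrichments were 37.4 and 37.6. The next annotated gene beyond it is the pseudogene ANKRD26P1. The other shared pairs were 34588155 to 34588344, with pileups of 38 and 25, and 34063865 to 34064157, with 18 and 14. A 0 Gy-only peak at 34085162 to 34085350 had a pileup of 34 (23.5 to 47.5), and the best 20 Gy-only peak, at 34097082 to 34097462, had 10 (4.80 to 18.4). The first of these would be worth 24.9 fragments at the 20 Gy depth.

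Chromosome 17 peaks formed a block of 8 in each library between 21835868 and 21991731, with 6 shared, and then ran from 22977506 to 26885971 at 0 Gy. The block lies between the pseudogenes LOC100996792 and LOC100287309, and the long run between the pseudogenes WEE1P2 and LOC100422478, with no annotated gene inside it. Split at gaps over 50 kb, the stretch of the long run with most peaks at 0 Gy was at its end. There 26782903 to 26885971 held 8 peaks at 0 Gy, all shared, with a median pileup of 52.5. The strongest pair, 26603679 to 26604379, had pileups of 387 and 256, a ratio of 0.905 (0.770 to 1.06). The pair at 26782903 to 26783176 had 245 and 202, a ratio of 1.13 (0.931 to 1.36), and that at 26619393 to 26620160 had 261 and 214, a ratio of 1.12 (0.932 to 1.35). The counting intervals of all 3 ratios include 1.

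Among chromosome 17 pairs with at least 20 in both, the ratio was highest at 26807578 to 26807758, with pileups of 28 and 34 and a ratio of 1.66 (0.977 to 2.84). It was lowest at 25383636 to 25383920, with 52 and 29 and a ratio of 0.763 (0.467 to 1.22). The unshared peaks were low. The best 0 Gy-only peak, 26292301 to 26292487, had a pileup of 17 (9.90 to 27.2) at the lowest background of the list. The best 20 Gy-only peak, 24150853 to 24151031, had 16 (9.15 to 26.0). Of the 15 chromosome 17 peaks found at 20 Gy only, 5 were shorter than 177 bp, the least length a 0 Gy peak could have.

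Chromosome 18 had the lowest median pileup of the 6 regions in both libraries, with no peak above a pileup of 11 at 0 Gy or 10 at 20 Gy. They lay from 15506582 onwards, beyond the pseudogene LOC644669, with a single peak in each 100 kb window that held any. The best 0 Gy peak, 15506582 to 15506790, had a pileup of 11 (5.49 to 19.7). The best 20 Gy peak, 16008547 to 16008852, had 10 (4.80 to 18.4), and the nearest 0 Gy peak was 132753 bp away.

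Chromosome 20 combined a long low stretch with a short tall one. From 26437976 to 29263284 the 0 Gy list held 77 peaks with a median pileup of 14 and a maximum of 64, of which 26 were shared. From 31054626 to 31241972 it held 8 peaks with a median pileup of 62, of which 6 were shared, and these carried 48.6% of the summed pileup of the region. Within the bounds of the long stretch the 20 Gy list held 43 peaks, and within those of the short one 7. The lower number of 20 Gy peaks on chromosome 20 thus lay in the long stretch. Its first 179.9 kb, 26437976 to 26617906, held 23 peaks at 0 Gy and 9 at 20 Gy. The stretches 28643718 to 28646036 and 28860215 to 28889868, with median pileups of 14 and 11, each held 3 at 0 Gy and 0 at 20 Gy. All these bounds came from the 0 Gy list, which favours 0 Gy in such counts. Stretches of at least 3 peaks bounded by the 20 Gy list there held 8, 3, 3, 3, 5 and 6 peaks at 20 Gy. In order, they held 18, 4, 1, 2, 4 and 4 at 0 Gy.

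The tallest chromosome 20 peak, 31241571 to 31241972, had pileups of 783 and 606, or 89.1 and 94.3 per 1000000 kept fragments, a ratio of 1.06 (0.95 to 1.18), with fold enrichments of 29.3 and 30.2. It lies 15.9 kb from DEFB115, which encodes a beta-defensin, an antimicrobial peptide family. Of all members it was the closest to a protein-coding gene. The pair at 31054626 to 31054803 had pileups of 141 and 98, a ratio of 0.951 (0.727 to 1.24), and that at 28307968 to 28308320 had 64 and 49, a ratio of 1.05 (0.707 to 1.54). Among pairs with at least 20 in both, the ratio was highest at 31075329 to 31075712, with 58 and 60 (1.41, 0.970 to 2.07), and lowest at 26474667 to 26474975, with 42 and 20 (0.651, 0.362 to 1.13).

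The unshared chromosome 20 peaks included the tallest 20 Gy-only member. This peak, 31063994 to 31064172, had a pileup of 80 (63.4 to 99.6) and was 179 bp long, just above the 177 bp that the 0 Gy call required, and the nearest 0 Gy peak was 785 bp away. At the 0 Gy depth it would be worth 109 fragments. The best 0 Gy-only peak by −log10 q-value, 31157399 to 31157915, had a pileup of 43 (31.1 to 57.9), which would be worth 31.4 at the 20 Gy depth, and lay 28350 bp from the nearest 20 Gy peak.

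Peaks called in 1 library only were mostly low. The 137 unshared 0 Gy members had a median pileup of 13 and a maximum of 108, and the 75 unshared 20 Gy members had a median of 10 and a maximum of 80. Within 10 kb of a peak of the other list lay 37 of the 137 and 22 of the 75. Of the 16 20 Gy members shorter than 177 bp, 13 were unshared and 3 overlapped a longer 0 Gy peak. Over all nuclear 20 Gy peaks, 84 of 127 that short were unshared. The part of the unequal minimum lengths was not tested. An unshared peak may lie just under the calling limit of the other library, and no fragment count at its position in the other library was used here.

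Where a peak was called in both libraries, its height per kept fragment was mostly similar. Over the 137 pairs the median ratio of 20 Gy over 0 Gy was 1.09, with quartiles of 0.905 and 1.25, where 909 other nuclear pairs had a median of 1.06. The ratio was above 1 in 81 of the 137 (59.1%), the same percentage as elsewhere. It reached 1.5 in 18 pairs (13.1%), against 10.7% of all nuclear pairs, and was at or below the inverse of 1.5 in 6 pairs (4.38%), against 5.64%. Both shares were thus near the background. The interval of the ratio lay above 1 in 5 pairs and below 1 in none, where over all 1046 nuclear pairs it lay above 1 in 17 and below 1 in 11.

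Of those 5 pairs, 4 were on chromosome 4 and 1 on chromosome 17. The pair with the widest change on chromosome 4, at 49650563 to 49650796, had pileups of 19 at 0 Gy and 30 at 20 Gy, a ratio of 2.16 (1.18 to 4.06), the highest among the members. This pair and the following ones were singled out after their values were seen. The pair beginning at 49092744 had 435 and 369, a ratio of 1.16 (1.01 to 1.34), and that beginning at 49632628 had 59 and 63, a ratio of 1.46 (1.01 to 2.12). On chromosome 17 the pair beginning at 26835841 had 145 and 136, a ratio of 1.28 (1.01 to 1.63). These intervals were not adjusted for the 137 pairs examined.

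By region, the median ratio was 0.996 over 37 pairs on chromosome 4, 1.06 over 3 on chromosome 16, 1.1 over 49 on chromosome 17 and 1.09 over 32 on chromosome 20. Chromosome 9 had 1.48 over 16 pairs, of which 14 were above 1 and 7 reached 1.5, though no single interval excluded 1. All chromosome 9 pairs had pileups between 10 and 24. Other nuclear pairs in that range of pileups, 365 in number, had a median ratio of 1.14, were above 1 in 69.9% and reached 1.5 in 13.4%. In the same range the median was 1.15 over 12 pairs on chromosome 17 and 1.19 over 13 on chromosome 20. By fold enrichment the chromosome 9 median ratio was 1.29, and its background differed by a median ratio of 1.06. A weak pair is counted only if both libraries passed the caller's limit, and its part in these ratios was not tested.

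**Figure D4:**
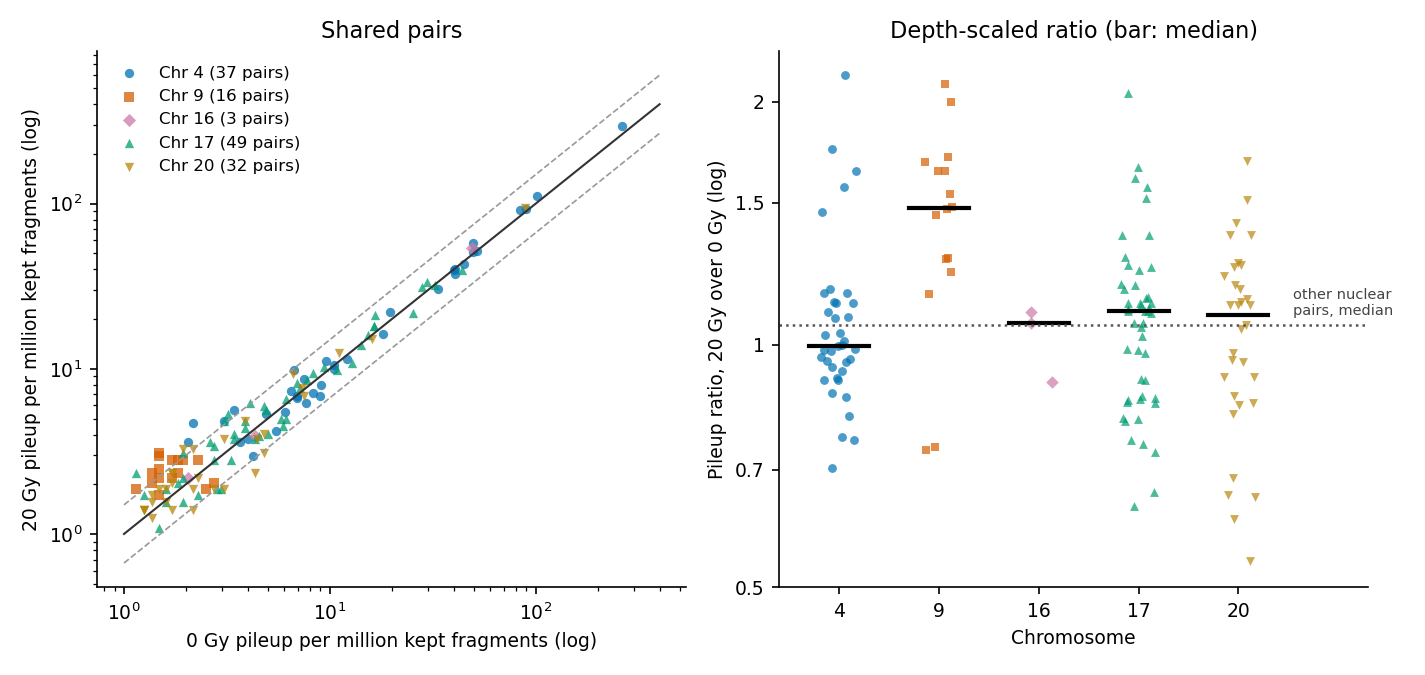
Left, pileup per 1000000 kept fragments of each shared pair at 0 Gy and 20 Gy (log axes), with the line of equality and dashed lines at 1.5-fold either way. Right, the ratio of 20 Gy over 0 Gy by chromosome (log axis), where each point is a pair, bars are medians and the dotted line is the median of other nuclear pairs, 1.06. Points lie along the line of equality up to the tallest peaks, and the chromosome 9 median of 1.48 is the highest of the 5 chromosomes with pairs.

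Across the 137 pairs the heights in the libraries ranked alike, with a Spearman coefficient of 0.939, against 0.873 for other nuclear pairs. The coefficient is given as a description, since pairs share their libraries and caller. Within regions it was 0.966 over 37 pairs on chromosome 4, 0.953 over 49 on chromosome 17 and 0.870 over 32 on chromosome 20. On chromosome 9, where heights spanned little, it was 0.118 over 16 pairs. Peak positions were also alike, since the median shift of the summit was 13 bp, against 21 bp for other nuclear pairs. Member pairs were taller, with a median 0 Gy pileup of 37 against 21. With a pileup of at least 20 in both libraries, the median shift was 10 bp against 14 bp. The part of height in this difference was not tested. Both edges fell within 10 bp of each other in 38 of 137 pairs (27.7%), against 18.7% elsewhere. This was concentrated on chromosomes 4, with 15 of 37, and 17, with 20 of 49, whereas chromosome 20 had 1 of 32 and chromosome 9 had 0 of 16.

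Few members lay near an annotated gene. The only gene with a member summit within 1000 bp was LOC124900865, a pseudogene on chromosome 4. Its peaks at 0 Gy were 49269584 to 49269807, with a pileup of 12, and 49278689 to 49278953, with 43, and the second recurred at 20 Gy with 34. None of the 99 protein-coding genes in the 6 intervals, which hold 627 annotated genes, had a member summit that close. More than 100 kb from any gene lay 206 of 274 members at 0 Gy (75.2%) and 154 of 212 at 20 Gy (72.6%). Distances to genes were taken for the members only, not for other nuclear peaks or for all bases of the intervals. They therefore describe where the members lay and not a preference of the peaks. The median distance was 379 kb at 0 Gy and 374 kb at 20 Gy. It was shortest on chromosome 4, with 40.2 and 41.4 kb, and among the longest on chromosome 9, with 722 and 727 kb.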

How the data were processed

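AIM2-precipitated DNA was sequenced from HaCaT cells, 1 library at 0 Gy and 1 at 20 Gy, and groups came from the treatment label. Tools in the submitters' processing notes are MACS2 2.1.2, BWA 0.7.15-r1140, Trimmomatic 0.36, deepTools 3.2.1 and bcl2fastq 2.20.0.422, with GRCh38.p13 as the build. Per the file headers, MACS2 called narrow peaks for each library on its own from paired-end fragments whose file name gives them as unique with duplicates removed. The q-value limit was 0.05, the effective genome size 3088286401 bp, 1 fragment was kept per position and no control was used. The local background came from windows of up to 10000 bp, and no peak could be shorter than the fragment size, 177 bp at 0 Gy and 170 bp at 20 Gy. Of 10497630 fragments at 0 Gy and 7740043 at 20 Gy, 16.3% and 17% were removed. The deposited signal is the pileup, unscaled, per the file headers. Per the file headers, p-values and q-values were deposited on the −log10 scale, against the local background. Fold enrichment was deposited by the authors as a ratio over the same background. These per-peak values are the authors' and served to describe, rank and filter.

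Members were chosen by summit, and implied background was computed as pileup plus 1, divided by the fold enrichment, minus 1. Peaks were paired one to one by best overlap, ratios carry exact binomial intervals, and no p-value was computed because each group has 1 library. Overlap and pairing were tested on simulated data. Named per chromosome were the 3 shared pairs with the highest lower −log10 q-value, the best peak of each list found there only, and the highest and lowest ratio among pairs with a pileup of at least 20 in both. Genes with a summit within 1000 bp were also named, and names and neighbours came from a RefSeq table of GRCh38.p14. The members and rules were chosen with earlier results of these data known. The definition of stretches by gaps over 50 or 500 kb was added after the data were seen. Base composition, motifs and repeats need a genome and were not run. Computation used Python 3.11.15, NumPy 2.4.6, pandas 2.3.3, SciPy 1.17.1 and Matplotlib 3.10.9.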

Additional observations from a re-analysis of the deposited data

How the results depend on the processing

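Alternatives were stricter peak limits, equal minimum lengths, whole peaks inside a region, merging, other overlaps and other scalings, and dividing ratios by the median of other nuclear pairs was added after seeing the data. Of the recomputed values for all 6 regions together, 28 kept to their counting interval, or for counts to a factor of 1.5, and 9 moved. Requiring a −log10 q-value of at least 5 raised the shared share to 59.7% at 0 Gy and 77.6% at 20 Gy. Keeping peaks at or above the list's median fold enrichment left 111 and 105 peaks, of which 73.9% and 78.1% were shared. Merging peaks within 10 kb left 180 regions at 0 Gy. All of these reduce the number of peaks by construction. For single chromosomes 161 values stayed and 34 moved. By fold enrichment in place of pileup per kept fragment the median ratio of pairs was 0.985, on the other side of 1, and the cause was not tested. With a pileup of at least 20 in both libraries, 6 of 82 pairs passed 1.5-fold (7.32%) in place of 24 of 137 (17.5%), and no chromosome 9 pair remained. The cause of the lower share was not tested. No paired analysis was possible because there is a single library at each dose. Steps that need a genome sequence were not run. Depth limits the low peaks most, since 1 fragment is worth 0.114 per 1000000 kept at 0 Gy and 0.156 at 20 Gy.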

Other observations

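For some members, picked after their values were seen, the next annotated gene on a side was a pseudogene of the FRG1 family. This family has many copies near centromeres, and being next in order does not mean being close. The stretch at 28643718 to 28646036 of chromosome 20, between FRG1CP and FRG1DP, held 3 peaks at 0 Gy, none of them shared, with a median pileup of 14. On chromosome 9 the shared pair at 63823248 to 63823877 lay between the microRNA gene MIR4477B and the pseudogene FRG1JP, with pileups of 24 at 0 Gy and 13 at 20 Gy. The nearest gene to its 0 Gy summit was MIR4477B, 3850 bp away. Between near-identical copies, mapping of short reads is uncertain.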
